A study of Mus musculus with 6 samples.

Results

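The nuclear-encoded subunits of the mitochondrial respiratory chain and the ATP synthase were taken as all gene symbols beginning Nduf followed by a, b, c, s or v and a number, Cox4 to Cox8, Uqcr or Atp5 whose mean level was at least 0.5 TPM (a share of each library's transcripts, scaled for transcript length) over 4 libraries. Of 32903 gene symbols with a value, 82 matched the pattern, 75 of these were members, 6 lay under the limit and 1, Ndufs5-ps, was dropped as a pseudogene. Complex I had 36 members, complex III 8, complex IV 14 and complex V 17. Ndufa4 was counted with complex IV, where its product is now placed, although its symbol belongs to the complex I series. Members were thus chosen by symbol and by mean level, not by the difference between groups, and no member depended on where the limit stood. The members closest to it from above were Ndufa13 (mean 5.78 TPM), Cox7a1 (8.62) and Cox6a2 (14.0), and the closest genes below it were Cox6b2 (0.111), Cox4i2 (0.0786) and Cox7b2 (0.0568).

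The study asked which genes rise in MuTuDC1940 cells given poly(I:C). Cells of this mouse dendritic cell line were left untreated or received poly(I:C), a synthetic double-stranded RNA, at 5 µg/ml for 18 hours, with 3 samples per group and polyadenylated RNA sequenced in each. As background, MuTu lines come from splenic dendritic cell tumours of mice in which the CD11c promoter drives a viral large T antigen, so both groups carry that oncogene and neither is a primary dendritic cell. The header of the deposited table has an empty cell after NT01, so the columns headed NT01 and NT02 (untreated) and PolyIC01 and PolyIC02 (treated), whose group is the same under either reading of the header, are compared here, 2 libraries per group. Sequencing depth is unknown because TPM keeps no record of it. Whether the replicates are separate cultures is not stated in the labels, so p-values reflect only how far these libraries differ, which may be technical spread.

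Electrons from NADH enter the chain at complex I, pass through ubiquinone to complex III and through cytochrome c to complex IV, where oxygen is reduced. Complexes I, III and IV pump protons across the inner mitochondrial membrane, and complex V, the ATP synthase, uses their return to make ATP. Most subunits are encoded in the nucleus and are assembled with a small set encoded by mitochondrial DNA, which are not analysed here. Activation of dendritic cells through pattern recognition receptors is known to shift their metabolism towards glycolysis.

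The majority of members were lower with poly(I:C) in each of complexes I, III, IV and V, mostly by modest amounts. In complex III 3 of 8 members did not pass. Of the 75 members, 67 fell, 1 rose and 7 did not pass (limma, Benjamini-Hochberg adjusted p under 0.05 over 12520 genes tested). Of all tested genes 32.4% fell and 28.4% rose, 60.8% in either direction. With a limit of 2 TPM, 36.7% of the genes then tested fell and 29.2% rose, while 67 members fell. The members had a median untreated level of 247 TPM, and no share over genes of a like level was taken. The log2 fold change was below 0 for 73 members, against 51.6% of tested genes. The median log2 fold change on the log2(TPM + 1) scale was -0.31 over the members and -0.02 over all tested genes, and the median member had 19.6% less TPM in the treated libraries. The falls were small: 63 of the 67 were smaller than 1.5-fold, against 2870 of the 4062 tested genes that fell. Cox7a1 was the only member lower by at least 2-fold, against 353 of the 12520 tested genes. The treated libraries lay below both untreated ones for 70 members, against 42.4% of all tested genes, above both for 2, against 38.9%, and overlapped them for 3. No overlap in either direction was seen for 81.3% of tested genes. Since TPM is a share, a lower value does not tell fewer molecules per cell from more of other RNA, and in bulk samples fewer cells of a type and less RNA per cell cannot be told apart.

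**Figure D1:**
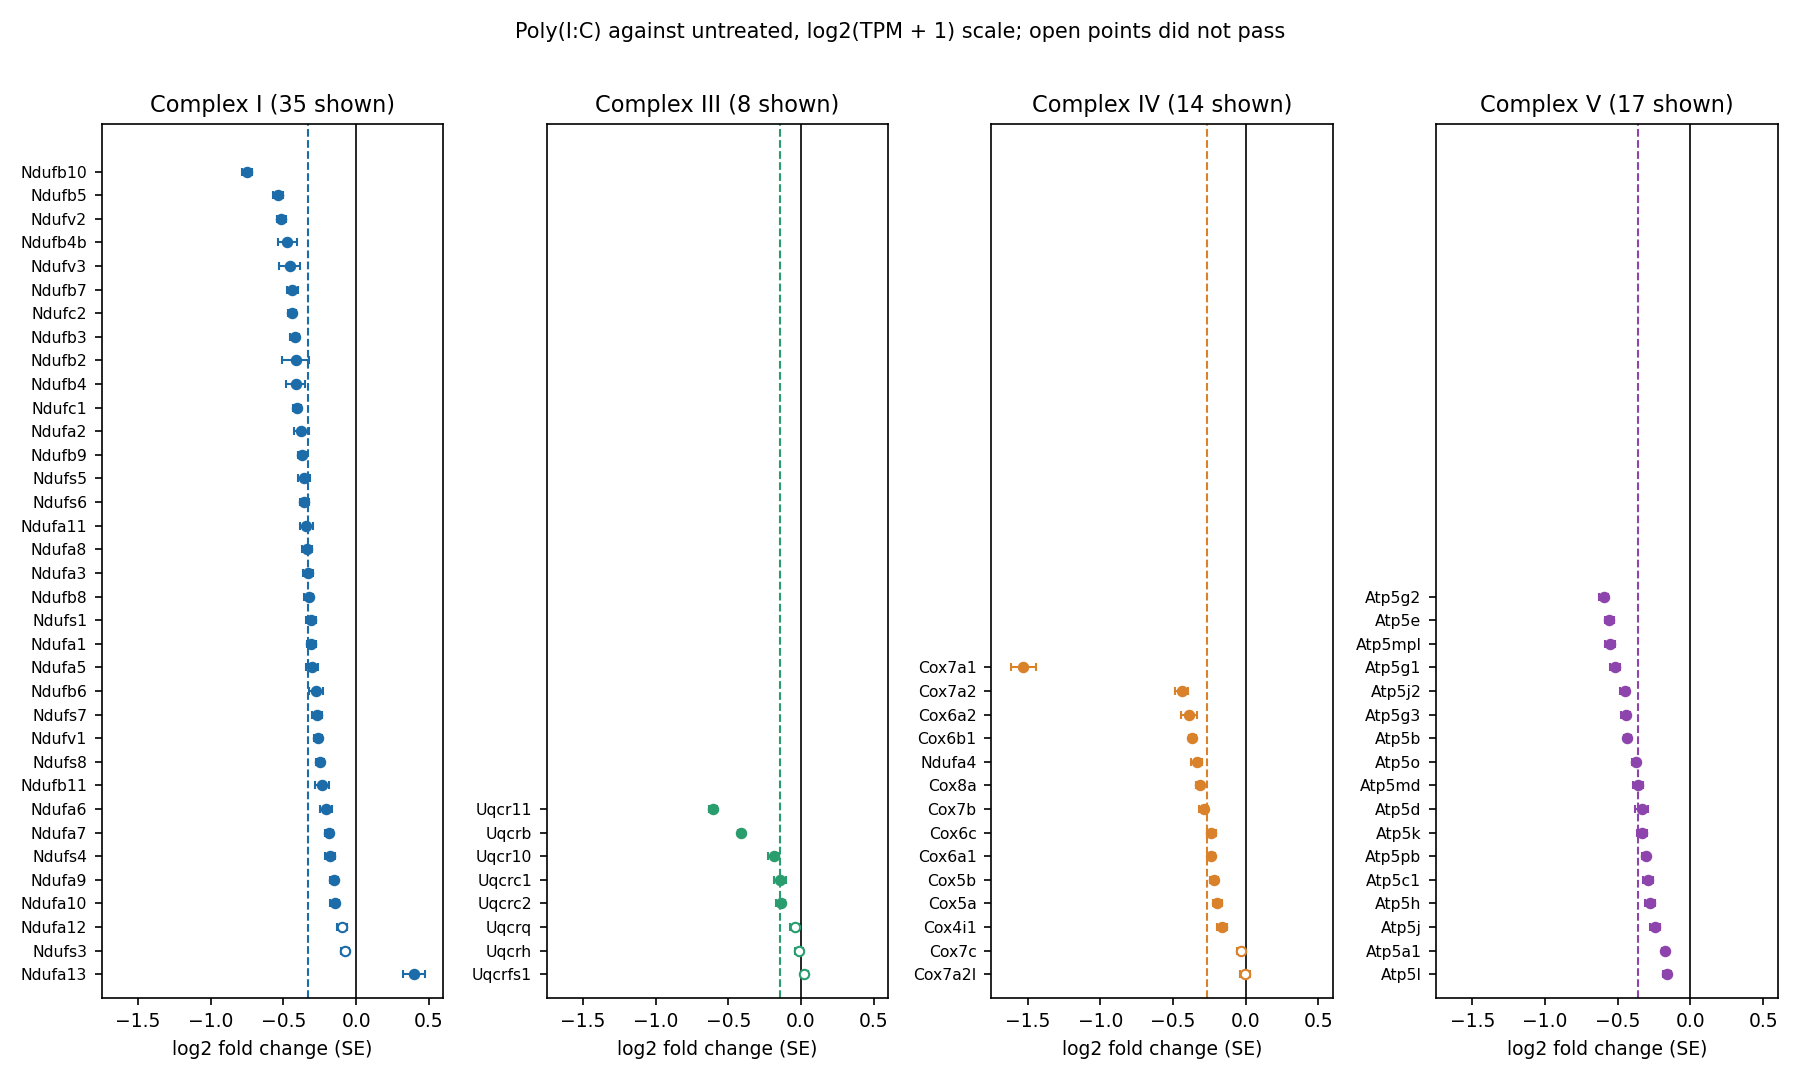
Log2 fold change (poly(I:C) against untreated, log2(TPM + 1) scale) of 74 of the 75 members, each with its standard error, by complex; filled points passed, open points did not, and the dashed line is the median over all members of the complex. The middle of the members lies between -0.42 and -0.19 (quartiles), with Cox7a1 at -1.53 and Ndufa13 at 0.40 standing apart.

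Members also differed in a shared direction between the untreated libraries. NT02 lay above NT01 for 68 of 75 members, with a median difference of 0.04 on the log2(TPM + 1) scale, while 4070 of the 12520 tested genes did, with a median of -0.04. In the treated libraries, PolyIC02 lay above PolyIC01 for 45 members (7 of 14 in complex IV), with a median difference of 0.02, against 4834 of the tested genes, with a median of -0.02. Members share their libraries, and their count is not a count of separate replicates. The largest difference of any member between libraries of a group was 0.21.

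The members summed to 23840.5 TPM in NT01, 24567 in NT02, 19579 in PolyIC01 and 19850 in PolyIC02, which is 2.38%, 2.46%, 1.96% and 1.99% of all TPM. The treated mean was 18.5% lower. Complex V had the largest relative difference, and its summed level was the highest in the untreated libraries but below that of complex IV in the treated ones, with 8477 ± 195 TPM untreated and 6530 ± 54.9 TPM treated (SD, n = 2 libraries per group throughout), 23.0% lower. Complex I went from 5978 ± 116 to 4807 ± 69.7 TPM, 19.6% lower. Complex III went from 2104 ± 29.4 to 1792 ± 18.9 TPM, 14.8% lower. Complex IV went from 7645 ± 173 to 6586 ± 48.3 TPM, 13.9% lower. No sum overlapped between the groups. Differences between complexes were not tested.

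**Figure D2:**
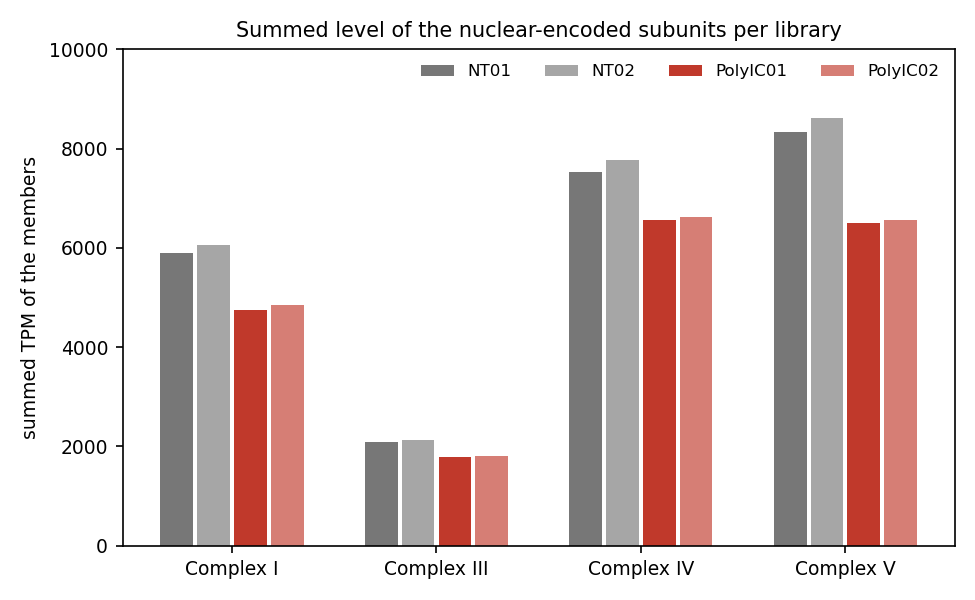
Summed TPM of the members of each complex in each of the 4 libraries (grey, untreated; red, poly(I:C)), on an axis that starts at 0. In every complex both red bars are lower than both grey bars, with the largest relative gap in complex V (23.0%) and the smallest in complex IV (13.9%).

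**Figure D3:**
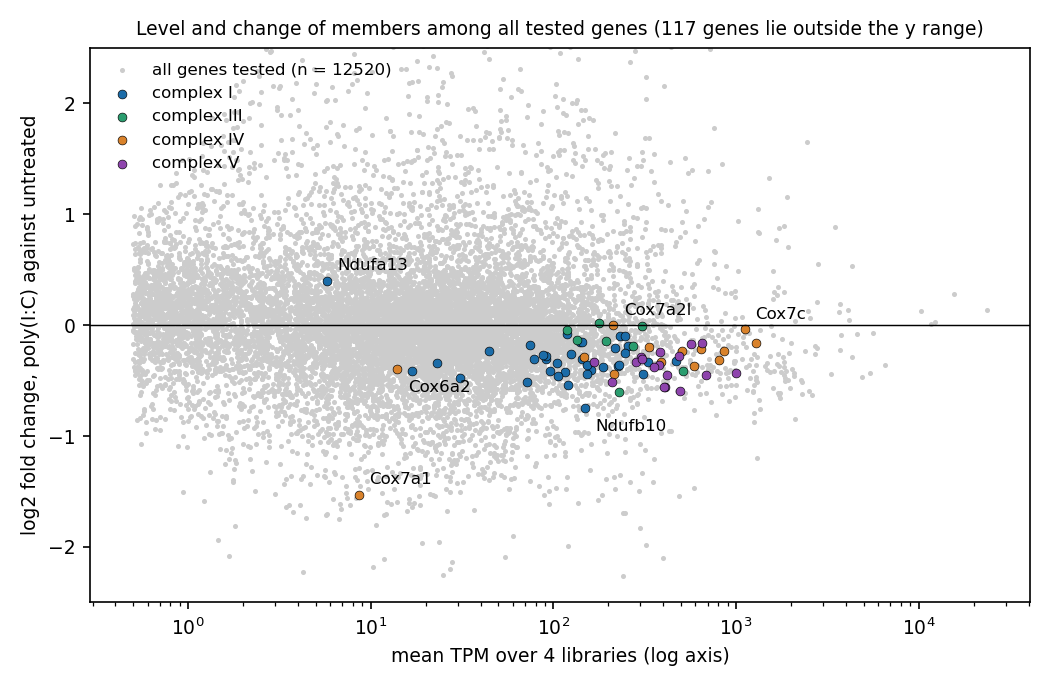
Mean TPM over the 4 libraries (log axis) against the log2 fold change for all 12520 tested genes (grey) and the members coloured by complex. Members sit among the more abundant genes, mostly just under the 0 line, whereas the grey cloud extends to both sides of it.

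Of all tested genes 32.4% fell and 28.4% rose, and whether the marker lists differ from them was not tested. All 11 cDC1 and dendritic cell markers of the list used were tested, and 5 rose, 4 fell and 2 did not pass. Among those that rose, Xcr1 went from 194 and 191 to 335 and 326 TPM (log2 fold change 0.78). Zbtb46 rose from 51.1 and 48.4 to 63.8 and 63.9 TPM (0.35) and Clec9a from 209 and 186 to 237 and 225 TPM (0.23). Cadm1 rose from 71.3 and 72.5 to 77.5 and 77.7 TPM (0.11) and Irf8 from 2482 and 2477 to 2558 and 2639 TPM (0.07). Itgae (CD103) was under 1 TPM in every library and did not pass. Itgax, which encodes CD11c, fell from 369 and 348 to 216 and 220.0 TPM (log2 fold change -0.71), Flt3 from 9.13 and 9.91 to 5.62 and 5.00 TPM (-0.74), Cd8a from 56.1 and 56.4 to 44.3 and 43.4 TPM (-0.35) and Batf3 from 145 and 143 to 114 and 119.6 TPM (-0.30). B cell markers summed to 3.36 and 3.79 TPM untreated and 7.05 and 5.89 TPM treated, mostly Ms4a1, which rose. T cell markers summed to 1.01 and 0.678 TPM untreated and 1.59 and 1.47 TPM treated, all of it Cd3d, which rose. Cd3e and Cd3g were listed at 0 throughout, and Trbc1 and Trbc2 had no matched transcript. Of 8 macrophage markers 6 were tested, of which 4 (C1qa, C1qb, C1qc and Fcgr1) rose and 2 did not pass. C1qb rose from 12.8 and 11.8 to 122 and 127 TPM (log2 fold change 3.24). C1qa rose from 37.2 and 36.8 to 168 and 174 TPM (2.18). C1qc rose from 31.0 and 29.2 to 111 and 115 TPM (1.88). Fcgr1 rose from 0.356 and 0.299 to 4.76 and 4.66 TPM (2.11). The summed level of the 8 macrophage markers was 335 and 331 TPM untreated and 648 and 669 TPM treated. Cd68, which did not pass, was the largest contributor in each library (252 and 251 TPM untreated, 241 and 246 TPM treated), and Csf1r and Mertk were under 0.5 TPM in every library. Of 6 plasmacytoid dendritic cell markers 3 were tested, of which 2 rose, none fell and 1 did not pass. The sum of the 6 went from 184 and 186 to 1291 and 1265 TPM, nearly all of it Bst2. Siglech was under 0.5 TPM and Ly6d was listed at 0. The part of these genes in the fall of the respiratory chain was not tested.

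Genes with a short leading transcript fell more often than those with a longer one, among all tested genes and among members. The leading transcripts of the members are short, with a median of 693.5 nucleotides over the 74 members with a known length, against 2751.5 over 11612 tested genes. Of the 987 tested genes shorter than 1000 nucleotides 43.6% fell and 21.1% rose (median log2 fold change -0.15), against 33.3% and 28.4% of the longer ones (median -0.02). Of the 54 members shorter than 1000 nucleotides 51 fell, with a median of -0.34, and of the 20 longer members 15 fell, with a median of -0.17. The part of length in the result was not tested.

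The members lie on 19 chromosomes, and because so many fell together, the promoters of those at the extremes are shown here. For each complex the member with the lowest log2 fold change and the member with the log2 fold change nearest 0 are given, among those with a promoter in the RefSeq table (GRCm38.p6), as the 150 bases before the annotated start, 5′ to 3′ on the strand of the gene. Capitals mark the letters of 4 motifs searched on both strands: the palindrome seen in the Atp5g2 line for NRF1, CCGGAAG for ETS factors such as GABP, AAGATGGC for YY1 and GGGCGG for SP1. Where motifs overlap, as in the second Ndufs3 stretch, the capitals run on.
Ndufb10, chr17:24724424-24724573, minus strand: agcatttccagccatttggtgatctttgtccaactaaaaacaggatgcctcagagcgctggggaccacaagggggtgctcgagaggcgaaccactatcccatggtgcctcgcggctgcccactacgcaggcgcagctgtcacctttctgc
Ndufs3, chr2:90904722-90904871, minus strand: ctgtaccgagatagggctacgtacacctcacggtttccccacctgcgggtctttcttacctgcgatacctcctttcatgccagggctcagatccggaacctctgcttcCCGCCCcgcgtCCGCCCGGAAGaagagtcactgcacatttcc
Uqcr11, chr10:80406822-80406971, minus strand: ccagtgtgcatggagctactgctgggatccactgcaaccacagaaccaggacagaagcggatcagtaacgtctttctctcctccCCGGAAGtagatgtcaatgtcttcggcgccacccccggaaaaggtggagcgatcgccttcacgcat
Uqcrh, chr4:116075071-116075220, minus strand: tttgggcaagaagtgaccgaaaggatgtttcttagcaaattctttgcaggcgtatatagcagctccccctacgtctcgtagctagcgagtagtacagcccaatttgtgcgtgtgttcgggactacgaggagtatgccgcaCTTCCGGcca
Cox7a1, chr7:30184021-30184170, plus strand: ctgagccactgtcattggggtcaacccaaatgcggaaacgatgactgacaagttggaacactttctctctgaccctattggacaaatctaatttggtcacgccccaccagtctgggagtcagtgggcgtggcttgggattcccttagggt
Cox7a2l, chr17:83514334-83514483, minus strand: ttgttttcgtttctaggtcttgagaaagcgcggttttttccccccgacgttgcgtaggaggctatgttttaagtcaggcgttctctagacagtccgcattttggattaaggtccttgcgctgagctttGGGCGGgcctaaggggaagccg
Atp5g2, chr15:102671048-102671197, minus strand: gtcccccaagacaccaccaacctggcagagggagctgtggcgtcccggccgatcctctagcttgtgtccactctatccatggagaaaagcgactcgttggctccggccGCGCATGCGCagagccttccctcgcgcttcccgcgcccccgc
Atp5l, chr9:44920743-44920892, minus strand: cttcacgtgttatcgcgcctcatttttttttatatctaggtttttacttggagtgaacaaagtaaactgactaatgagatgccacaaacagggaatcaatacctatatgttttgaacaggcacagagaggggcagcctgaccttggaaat

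Among these 8 stretches the ETS letters stood in both complex III promoters and in that of Ndufs3. The SP1 letters stood in those of Ndufs3 and Cox7a2l, and the NRF1 letters in that of Atp5g2. The other 3 of the 8, those of Cox7a1, Ndufb10 and Atp5l, held none of the 4 motifs. In the full windows described next, Atp5g2 also held the SP1 letters and Atp5l held the ETS letters. The relation of the motifs to the fold changes was not tested. Over the full 300-base windows (250 before and 50 after the start) 63 of the 75 members had a window, 68 windows in all. The NRF1 letters stood in 5 of these 68 windows (7.35%), against 0.971% of all 32851 windows in the table and 1.97% of the 12677 windows of tested genes. The YY1 letters stood in 10 (14.7%), against 2.75% of all windows and 4.55% of those of tested genes. The ETS letters stood in 15 (22.1%), against 8.86% and 17.6%, and the SP1 letters in 25 (36.8%), against 35.7% and 59.1%. A match of letters is a description and not a binding site.

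Complex I, the NADH dehydrogenase, was lower in most of its members. Of 36 members 33 fell, 1 rose and 2 did not pass. The median log2 fold change was -0.33. Its 7 nuclear-encoded core subunits, which carry the flavin and the iron-sulfur clusters, had a median of -0.26, and the 29 accessory subunits a median of -0.34.

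Ndufb10, an accessory subunit of the membrane arm, fell most, from 185.9 and 188 TPM to 107.7 and 113.8 TPM, 40.8% lower (adjusted p = 2.72e-05 in limma, log2 fold change -0.75, SE 0.035). Ndufb5, also of the membrane arm, was next, at 144.3 and 141.1 TPM untreated and 100.3 and 95.96 TPM treated (-0.54). Ndufv2, a core subunit with an iron-sulfur cluster, was at 84.11 and 84.37 TPM untreated and 58.81 and 58.46 TPM treated (-0.52), so both treated values lay well below both untreated ones. Ndufb4b, known only from a predicted transcript of a gene similar to Ndufb4, went from 35.1 and 36.76 to 27.05 and 24.23 TPM (-0.47), and its share of reads with Ndufb4 (106.6 and 112 to 76.77 and 86.78 TPM, -0.42) is uncertain. The dropped pseudogene Ndufs5-ps was at 21.9 and 22.4 TPM untreated and 12.6 and 10.3 TPM treated, and its reads may be shared with Ndufs5 (170.4 and 173.8 to 129.2 and 139.2 TPM). The most abundant complex I transcripts were those of the accessory subunits Ndufb8, at 519.8 and 527 TPM untreated and 407.5 and 427.2 TPM treated (-0.33), Ndufa3 (360.0 and 373 to 284.7 and 297.1 TPM, -0.33) and Ndufb7 (346.9 and 363.7 to 255.4 and 268.1 TPM, -0.44).

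The other core subunits fell less than Ndufv2 or did not pass. Ndufs1, which holds several iron-sulfur clusters, went from 87.94 and 86.6 to 71.68 and 68.75 TPM (log2 fold change -0.31). Ndufs7, which carries the last cluster before ubiquinone, went from 95.57 and 97.29 to 77.83 and 81.73 TPM (-0.27). Ndufv1, which binds NADH and the flavin, went from 135.3 and 136.1 to 111.2 and 114.9 TPM (-0.26), and Ndufs8 from 265.2 and 269.2 to 224.7 and 224.8 TPM (-0.25). In each of these genes the groups were well apart. Among accessory subunits the smallest falls were those of Ndufa9 (149.97 and 152.5 to 134.7 and 136.6 TPM, -0.16) and Ndufa10 (145.2 and 148.9 to 133.3 and 131.9 TPM, -0.15), the latter not passing with median ratio scaling (adjusted p = 0.0577 in limma). Ndufs4, an accessory subunit whose loss causes mitochondrial disease, went from 78.4 and 79.8 to 71.0 and 68.8 TPM (-0.18). Ndufs3 was at 120.2 and 122.9 TPM untreated and 114.4 and 116.1 TPM treated (-0.08, adjusted p = 0.0676), and the accessory subunit Ndufa12 at 233.7 and 247.8 TPM untreated and 226.3 and 223.8 TPM treated (-0.10, adjusted p = 0.0581). Neither passed, although the treated values of both genes lay below the untreated ones.

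Ndufa13, an accessory subunit also linked to cell death, was the only member that rose. It was listed at 4.994 and 4.707 TPM untreated and 6.845 and 6.59 TPM treated (adjusted p = 0.0059 in limma, log2 fold change 0.40, SE 0.076). Its mean level was the lowest of all members, and every other complex I member was at 13.2 TPM or more in every library. The gene overlaps Yjefn3 on the same strand in GENCODE M21 (GRCm38), and reads may be divided between them, so the level and the rise are uncertain. Over the members, 71 could be matched to GENCODE M21, of which 11 overlap another gene on the same strand and 25 on the opposite strand. No source used here says whether the quantification used strand, and reads of overlapping genes may not have been told apart.

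Ndufv3, an accessory subunit near the site of NADH oxidation, fell as a gene and held transcripts that differed in direction. The shorter transcript (493 nucleotides) had 104 and 121 TPM untreated and 72.5 and 77.0 TPM treated, and the longer (1582 nucleotides) had 10.2 and 10.8 TPM untreated and 14.4 and 14.5 TPM treated. The longer transcript thus made up 8.96% and 8.21% of the TPM of the gene in the untreated libraries and 16.6% and 15.9% in the treated ones, with no overlap. Transcripts were not tested. Of the 14 members with several transcripts of at least 1 TPM, Ndufv3 and Atp5j were those in which transcripts without overlap moved in opposite directions, and both were named after their values were seen.

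**Figure D4:**
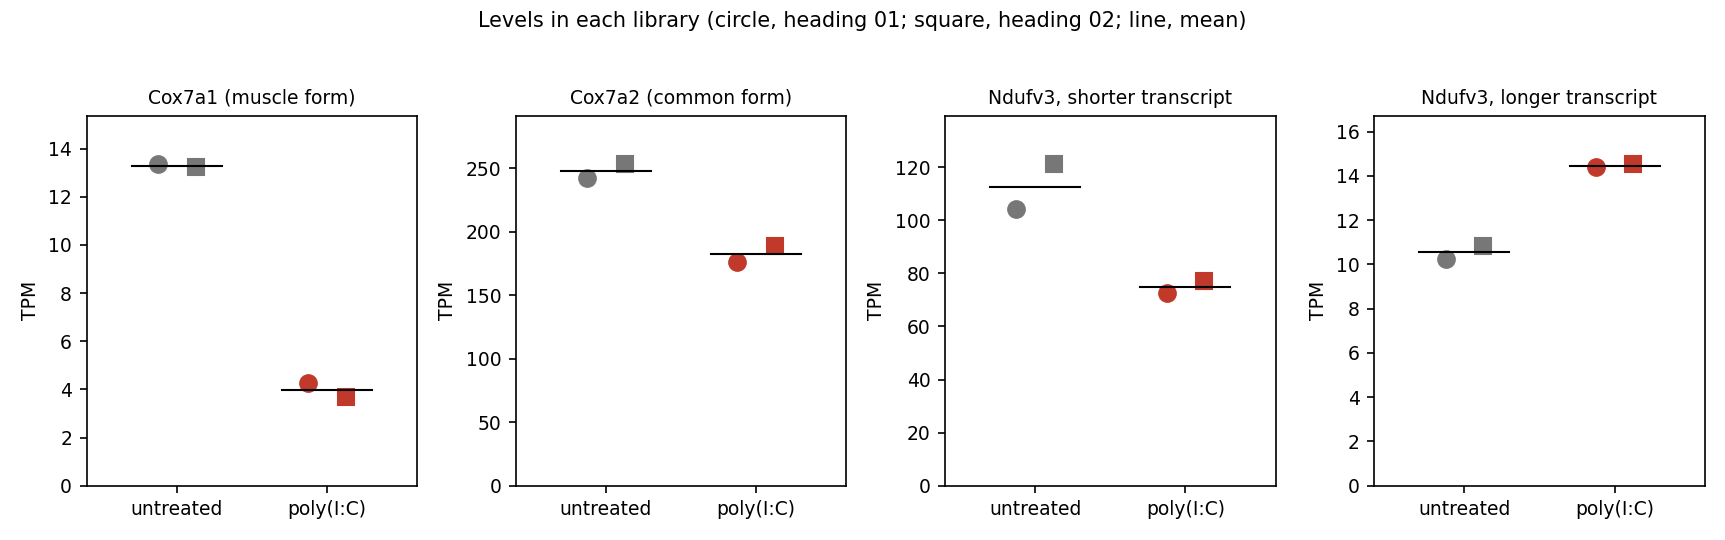
TPM in each library (grey, untreated; red, poly(I:C); circle and square, headings 01 and 02; line, group mean) of Cox7a1, Cox7a2 and the shorter and longer transcript of Ndufv3, each axis starting at 0. Cox7a1 drops to between 3.66 and 4.25 TPM, and the longer Ndufv3 transcript is the only panel in which the treated values are higher.

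Complex III, which passes electrons from ubiquinol to cytochrome c, was the complex with the smallest median change (-0.14), and 5 of its 8 members fell. Uqcr11, a small accessory subunit, went from 272.6 and 277.2 to 182.8 and 178.3 TPM (adjusted p = 2.34e-05 in limma, log2 fold change -0.60, SE 0.027), and Uqcrb, which helps to stabilise the complex, from 590.3 and 587.2 to 445.7 and 438.4 TPM (-0.41). In both genes the groups were far apart. Uqcr10 went from 283.8 and 299.1 to 250.7 and 261.6 TPM (-0.19).

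The core proteins of complex III, Uqcrc1 (199 and 207.8 to 178.6 and 189.4 TPM, log2 fold change -0.14) and Uqcrc2 (139.6 and 141.2 to 125.1 and 129.8 TPM, -0.14), were 9.56% and 9.21% lower in the treated libraries. When libraries were scaled by median ratios, Uqcr10, Uqcrc1 and Uqcrc2 no longer passed and 2 members of the complex fell. In limma without trend or robust moderation, and without PolyIC01, 3 fell. Uqcrfs1, the Rieske iron-sulfur protein that takes electrons from ubiquinol, was at 176.6 and 176.8 TPM untreated and 180.5 and 178.7 TPM treated, with a log2 fold change of 0.02 (95% interval -0.04 to 0.09). Uqcrh, the hinge protein that helps cytochrome c to dock, was at 302.4 and 311.7 TPM untreated and 300.1 and 308.7 TPM treated (-0.01, 95% interval -0.09 to 0.06), and Uqcrq was at 118.8 and 123.7 TPM untreated and 115.2 and 120.5 TPM treated (-0.04, 95% interval -0.13 to 0.05). These 3 did not pass, and the groups overlapped for Uqcrh and Uqcrq.

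Complex IV, cytochrome c oxidase, is the site of oxygen reduction, and its nuclear-encoded subunits surround a catalytic core made in mitochondria. Of its 14 members 12 fell and 2 did not pass. The median log2 fold change was -0.26. The most abundant were Cox4i1, Cox7c and Cox6a1.

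Cox7a1, the form of subunit 7a known from heart and skeletal muscle, had the deepest fall of all members. It was at 13.35 and 13.22 TPM untreated and 4.254 and 3.662 TPM treated, 70.2% lower (adjusted p = 4.55e-05 in limma, log2 fold change -1.53, SE 0.084), and 0.503% of all tested genes had a lower log2 fold change. The common form, Cox7a2, was far more abundant and went from 241.8 and 253.1 to 175.8 and 188.3 TPM (-0.44). The share of Cox7a1 in the sum of both was 5.23% and 4.96% untreated and 2.36% and 1.91% treated. Muscle markers were scarce in both groups: 8 striated muscle markers summed to 1.97 and 1.58 TPM untreated and 1.44 and 1.65 TPM treated, and Myl2 was listed at 0 in every library.

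Cox6a2, the muscle form of subunit 6a, went from 16.03 and 16.06 to 12.16 and 11.81 TPM (log2 fold change -0.39), and the common form Cox6a1 from 914.6 and 939.4 to 785.7 and 789 TPM (-0.24). Cox6a2 made up 1.72% and 1.68% of their sum untreated and 1.52% and 1.47% treated. The other tissue forms of the complex, Cox4i2, Cox6b2, Cox7b2, Cox8b, Cox8c and Ndufa4l2, were under the limit, and none exceeded 0.202 TPM in any library.

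The remaining subunits of complex IV fell moderately. Cox6b1, which faces the space between the membranes, went from 661.2 and 670.9 to 511.6 and 521.5 TPM (log2 fold change -0.37), Ndufa4 from 418.6 and 447.5 to 340.2 and 345.4 TPM (-0.34), Cox8a from 877.7 and 902.3 to 715.7 and 714.8 TPM (-0.31) and Cox7b from 158.7 and 163.3 to 129.7 and 133.4 TPM (-0.29). Cox5b (680.8 and 696.9 to 600.1 and 584.4 TPM, -0.22) and Cox5a (348.7 and 362.7 to 314.4 and 306 TPM, -0.20), which flank the catalytic core, fell less, as did Cox6c (536.4 and 563.9 to 469.0 and 464.1 TPM, -0.24). Cox4i1, the largest nuclear-encoded subunit, went from 1329 and 1378 to 1173 and 1247 TPM (-0.16, adjusted p = 0.0116 in limma), and this call was lost with median ratio scaling and without trend or robust moderation, with adjusted p up to 0.115. Cox7c was at 1119 and 1142 TPM untreated and 1112 and 1095 TPM treated (-0.03, 95% interval -0.09 to 0.02). Cox7a2l, which joins complexes III and IV into supercomplexes, was at 207.7 and 218.4 TPM untreated and 208.9 and 216.3 TPM treated (-0.00, 95% interval -0.09 to 0.09). Neither passed, and the groups overlapped for Cox7a2l.

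Complex V fell as a whole: all 17 members passed. Their log2 fold changes had a median of -0.36 and a range from -0.60 to -0.16. The call for Atp5l, a membrane subunit (674.2 and 696.8 to 603.1 and 621.9 TPM, -0.16), was lost with median ratio scaling (adjusted p = 0.072 in limma).

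The genes of subunit c, which forms the rotating ring in the membrane, were among those that fell most. Atp5g2 went from 584.6 and 600.2 to 381.7 and 401.1 TPM (adjusted p = 4.59e-05 in limma, log2 fold change -0.60, SE 0.033), Atp5g1 from 243 and 251.3 to 168.5 and 176.4 TPM (-0.52) and Atp5g3 from 474.5 and 496.7 to 358.7 and 353.6 TPM (-0.45). Their sum went from 1325 ± 32.6 to 920.0 ± 15.7 TPM, 30.6% lower. The share of Atp5g1 in the sum was 18.5% to 19.0% in all 4 libraries. The share of Atp5g2 went from 44.9% and 44.5% to 42.0% and 43.1% and that of Atp5g3 from 36.4% and 36.8% to 39.5% and 38.0%, both without overlap between the groups. These genes are known to encode the same mature protein with different import sequences.

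Within the catalytic head, beta subunit gene Atp5b, the most abundant member of the complex, went from 1148 and 1161 to 849.9 and 860.0 TPM (adjusted p = 3.37e-05 in limma, log2 fold change -0.43, SE 0.022). The alpha subunit gene Atp5a1, whose product alternates with beta in the same ring, went from 598 and 604.1 to 529.8 and 535.2 TPM (-0.17). The gamma subunit gene Atp5c1, which forms the rotating shaft, went from 322.1 and 339.8 to 267 and 274.1 TPM (-0.29), and Atp5d of the same stalk from 184.4 and 186.2 to 140.4 and 153.1 TPM (-0.34). Atp5e, the smallest subunit of the stalk, fell most of these, from 476.3 and 497.5 to 325.7 and 334.5 TPM (-0.56). The head thus held both the smallest change but for Atp5l and the second largest of the complex.

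The other members of complex V fell by between 15.4% and 32.0%, apart from Atp5l and the genes of subunit c. Atp5mpl, a small membrane protein of the synthase, went from 469.7 and 492.8 to 331.4 and 323.2 TPM (log2 fold change -0.55), and Atp5j2, subunit f, from 778.4 and 813.2 to 577 and 584.7 TPM (-0.45). In the stalk that holds the head still, Atp5o went from 393.6 and 405.9 to 305.8 and 309.2 TPM (-0.38), Atp5pb from 337.9 and 342.7 to 273.6 and 276 TPM (-0.31), Atp5h from 523.7 and 548.5 to 434.9 and 448.7 TPM (-0.28) and Atp5j from 410.2 and 416.6 to 359.5 and 340.0 TPM (-0.24). No group overlapped with the other in any of these genes.

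Other genes of the respiratory chain did not all follow the subunits. Of the 4 genes of complex II, which feeds electrons from succinate, Sdhd (156 and 158 to 125 and 129 TPM, log2 fold change -0.31) and Sdha (216 and 213 to 191 and 188 TPM, -0.18) fell. Sdhc (210 and 213 to 209 and 205 TPM, -0.03) and Sdhb (121 and 110 to 115 and 116 TPM, 0.00) did not pass. Cyc1, the cytochrome subunit of complex III whose symbol lies outside the pattern, fell from 243 and 243 to 181 and 200 TPM (-0.35). Cycs, cytochrome c, was at 98.7 and 98.3 TPM untreated and 91.4 and 92.5 TPM treated (-0.10, adjusted p = 0.0285 in limma), a call lost under 7 alternatives, with adjusted p up to 0.237. Ndufab1, the acyl carrier protein, was at 8.38 and 6.90 TPM untreated and 8.57 and 6.31 TPM treated and did not pass.

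Assembly factors, which build the complexes and are not part of them, are given by complex. Of all tested genes 32.4% fell and 28.4% rose, and differences between these lists were not tested. For complex I, 13 of 14 were tested, 9 fell, 1 rose and 3 did not pass, the largest changes being the fall of Ndufaf2 (31.5 and 30.9 to 18.9 and 21.8 TPM, log2 fold change -0.60) and the rise of Foxred1 (17.6 and 20.8 to 26.8 and 25.9 TPM, 0.44), the latter not passing with curated transcripts alone (adjusted p = 0.087 in limma). For complex III, 4 of 6 fell and 2 did not pass. Lyrm7, which guards the Rieske protein before its insertion, was at 1.37 and 1.00 TPM untreated and 0.338 and 0.115 TPM treated (-0.83), and Bcs1l, which inserts it, went from 11.6 and 10.9 to 6.59 and 6.74 TPM (-0.68). Lyrm7 lay near the level limit, and was not tested with the limit of 2 TPM or with curated transcripts alone.

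For complex IV the assembly factors moved in both directions, while none of its 14 subunits rose. Of 22 assembly factors 11 rose, 6 fell and 5 did not pass. Sco1, a copper chaperone, rose from 4.93 and 4.36 to 13.9 and 13.8 TPM (log2 fold change 1.40), and Cmc2 fell from 32.9 and 34.2 to 14.3 and 13.7 TPM (-1.21). The difference between these factors and the subunits was not tested. For complex V, Tmem70, which helps to build the c ring, rose from 78.0 and 78.6 to 96.8 and 96.1 TPM (0.30), while Atpaf1 (13.1 and 13.1 to 10.6 and 10.8 TPM, -0.27, not passed without PolyIC01) and Atpaf2 (21.6 and 21.5 to 15.7 and 15.9 TPM, -0.43), which bring alpha and beta together, fell. The supercomplex factor Higd2a fell from 321 and 330 to 200 and 207 TPM (-0.67), and Higd1a went from 33.4 and 42.5 to 28.8 and 28.6 TPM (-0.38), a call lost under 5 alternatives.

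Regulators of respiratory chain transcription moved in both directions. Of 12 genes 10 were tested, 2 rose, 4 fell and 4 did not pass, where 32.4% of all tested genes fell and 28.4% rose. Whether the regulators differ from all tested genes was not tested. Nrf1, a transcription factor of many respiratory genes, fell from 32.7 and 33.7 to 25.2 and 23.4 TPM (log2 fold change -0.44, not passed with curated transcripts alone, adjusted p = 0.0691), and Polrmt, the mitochondrial RNA polymerase, from 14.0 and 13.4 to 10.4 and 10.3 TPM (-0.37). Of the other factors whose motifs were searched, Yy1 rose from 130 and 130 to 166 and 164 TPM (0.34). Gabpa went from 33.2 and 32.0 to 26.2 and 26.1 TPM (-0.31), but its log2 fold change was 0.35 when curated transcripts alone were summed (adjusted p = 0.118 in limma). The coactivator genes Ppargc1a and Ppargc1b, master regulators in muscle and brown fat, were under the limit, at no more than 0.151 TPM in any library.

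Of 5 genes that are known to alter respiration in inflamed cells 3 rose, 1 fell and 1 was not tested. Over all tested genes 28.4% rose and 32.4% fell, and whether this list differs from them was not tested. AA467197, which encodes a protein similar to that of Ndufa4 and able to take its place in complex IV, rose from 6.07 and 7.87 to 15.0 and 16.8 TPM (adjusted p = 0.000826 in limma, log2 fold change 1.09, SE 0.124), while Ndufa4 fell, as given above. Acod1, whose product makes itaconate, an inhibitor of complex II, rose from 1.10 and 1.04 to 112 and 106 TPM (5.73). Hif1a rose from 190 and 184 to 238 and 233 TPM (0.33), and did not pass when curated transcripts alone were summed (0.13, adjusted p = 0.136). Ucp2, a carrier of the inner membrane, fell from 2129 and 2100 to 1766 and 1794 TPM (-0.25). Nos2, the inducible nitric oxide synthase, was listed at 0 in both untreated libraries and at 0.0250 and 0.0699 TPM in the treated ones.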

How the data were processed

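Polyadenylated RNA of untreated and poly(I:C)-treated MuTuDC1940 cells was sequenced with a directional kit, per the labels' protocols. Per the submitters' processing notes, kallisto 0.42.4 was used, along with bcl2fastq 2.20.0.422 and the build GRCm38. Their roles and the use of strand are not stated. The deposited table holds values per RefSeq transcript that are named FPKM, but each column sums to 1000000, so they were taken as TPM as the authors deposited them. TPM keeps no depth, so no counting error can be given. The table has 6 value columns under 5 headings. The 4 whose group is the same under either reading were used, and 2 columns of values per sample were not used in any step.

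From these values, 86722 of 107384 transcripts (80.8%, holding 91.8% to 92.2% of TPM) were matched by accession to RefSeq gene symbols (GRCm38.p6) and summed to 32903 symbols. The 12520 with a mean of at least 0.5 TPM were tested on log2(TPM + 1), with a pseudocount of 1, so fold changes of low genes are understated. The test was limma 3.58.1 (R 4.3.3) with trend and robust moderation, untreated against poly(I:C), 2 libraries per group, with p-values adjusted by Benjamini-Hochberg over all tested genes. Tables were made with pandas 2.3.3 and numpy 2.4.6, and plots with matplotlib 3.10.9, in Python 3.11.15.

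The members and the lists of other genes and markers were chosen with earlier results of these data known, so no test over a list was made. Per complex the text names the 5 passing members with the most negative and the 5 with the most positive log2 fold change, the 3 most abundant, tissue isoforms, subunit c genes, core subunits, members that did not pass and the 3 genes nearest the level limit on each side. From other lists it names the 2 passing genes with the largest change, and every gene of lists of at most 5. Other genes were named after their values were seen, or because their motif was searched. The alternatives were pseudocounts of 0.1 and 0.5, a limit of 2 TPM or none, median ratio scaling, limma without trend or robust moderation, curated transcripts alone, a replicate block and leaving out each library. The individual results of some genes are not reported here, although the counts and sums include them.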

Additional observations from a re-analysis of the deposited data

How the results depend on the processing

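Of the 67 members that fell, 60 passed under every alternative run for them, and each of the 67 kept a negative log2 fold change in these. There were 12 alternatives, but 11 for Ndufb4b, which has no curated transcript. The other 7 were lost under at least 1, among them Ndufa10, Uqcr10, Uqcrc1, Uqcrc2, Cox4i1 and Atp5l. With median ratio scaling 60 members fell, and without trend or robust moderation 63, while leaving out each library gave 64 to 67; Ndufa13 was the only member that rose in each of these. Complex III fell in 2 members with median ratio scaling, in 3 without trend or robust moderation, and in 3 to 5 when each library was left out, the lowest without PolyIC01; the cause was not tested. That scaling, which moved the median of all tested genes from -0.02 to 0.03, made the summed TPM 15.7% lower over all members, 16.7% in complex I, 11.8% in complex III, 10.8% in complex IV and 20.2% in complex V. Log2 fold changes that changed sign belonged to genes that did not pass, except Gabpa (0.35 with curated transcripts). With median ratio scaling they were 0.0382 for Uqcrh, 0.00974 for Uqcrq, 0.0476 for Cox7a2l, 0.0157 for Cox7c, 0.0175 for Sdhc and 0.00243 for Ndufab1. Over the libraries left out in turn, the Uqcrh log2 fold change ranged from -0.0341 to 0.00947, the Cox7a2l log2 fold change from -0.0390 to 0.0335, and the others from -0.0642 to 0.0716 for Sdhb and from -0.237 to 0.152 for Ndufab1. The heading numbers do not establish pairs, since the header may be shifted by 1 column; the same-numbered library differences had Pearson r = 0.02 across 12520 genes. With a replicate block by those numbers, 68 members fell and 1 rose. With 2 libraries per group of unknown depth, the calls of small differences, such as those of Uqcr10, Uqcrc1 and Uqcrc2, depended on the setting.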
